A study of Mus musculus with 17 samples.

Results

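Mitochondrial ribosomal proteins were followed in the livers of mice that lack alpha-fetoprotein. The members were all genes on the array whose symbol begins with Mrpl or Mrps followed by a digit: 61 of the 9030 named genes, measured by 76 probes. By name, 38 belonged to the large subunit (46 probes) and 23 to the small subunit (30 probes). All 61 had enough values to be tested in adults, and 59 (37 large, 22 small) in embryos. The study hybridised the RNA of single Afp knockout animals (AFP1 kO in the series' wording) against pooled wild-type liver RNA on 17 cDNA arrays. The adult group held 6 mutant males aged 17 weeks, set against a pool of 6 wild-type males of that age. Of these animals, 5 were hybridised in both dye orientations and animal 5 only with the mutant in Cy5, which gave 11 arrays. The fetal group held 6 mutant embryos, 3 male (embryos 1, 2 and 3) and 3 female (embryos 4, 5 and 6), always with the mutant in Cy5, against a pool with 4 named wild-type animals. The labels give their age as embryonic day 7.5, an age that could not be checked here. The sex the labels state for that pool is male for 2 arrays but female for the other 4. The labels used here state neither a strain nor the construction of the knockout allele, and no wild-type animal was measured alone. Each value is therefore a log2 ratio of a mutant animal to its pool, with 0 meaning equal levels, and the spread among wild-type animals is not part of any test. The tests measure only the spread between these animals.

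The mitochondrial ribosome translates the few proteins that mitochondrial DNA encodes, all of them core parts of the respiratory chain and the ATP synthase. Its proteins are encoded in the nucleus, made in the cytosol and imported, while its ribosomal RNAs come from the mitochondrial genome. Many members descend from bacterial ribosomal proteins and others were gained in mitochondria. Hepatocytes are rich in mitochondria, and fetal liver is at the same time a site of blood formation.

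The regulatory sequences of some members are shown because many genes for mitochondrial proteins share short promoter motifs, here the binding letters of the ETS family (which includes the GA-binding protein, also called NRF-2), of nuclear respiratory factor 1 (NRF1) and of YY1. RefSeq windows (build GRCm38.p6) of 300 bases, from 250 before to 50 after a transcript's start, were at hand for 54 of the 61 members (57 windows). The ETS motif CCGGAAG, searched on both strands, was in the windows of 21 of these 54 genes (38.9%), against 12.9% of 17492 protein-coding genes. The YY1 motif ATGGCGG was in 16.7% of the members against 6.05% of all genes, and the NRF1 motif GCATGCG in 9.26% against 4.96%. Only Mrps11 held the YY1 letters within the 250 bases before the start. In the other members with a YY1 match, the match reached into the 50 bases after the start. Letters of more general promoter motifs were about as common in members as elsewhere: GGGCGG (Sp1) in 51.9% against 49.2%, CCAAT in 40.7% against 42.3%, and the E-box CACGTG in 7.41% against 8.91%. TATAAA (the TATA box) was in 7.41% of the members against 14.8% of all genes. The median GC content of the windows was 58.3% for the members and 56.3% for all genes, and in 2 of the 57 windows matches of different motifs overlapped. The ETS share was 36.4% in the large and 42.9% in the small subunit. These are matches of letters, not measured binding.

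The 250 bases before the start are printed 5′ to 3′ on the gene's strand for 4 members to which the comparisons return, with matches to the ETS, NRF1 or YY1 letters in capitals. With adult arrays as deposited and averaged per animal, Mrpl52 was below its pool in every adult, and it was above it in most embryos. Mrpl35 had the largest fetal mean of the members tested. Mrps22 and Mrps18a differed between the ages in opposite directions without passing the threshold.
Mrpl52 (chr14:54426659-54426908, plus strand): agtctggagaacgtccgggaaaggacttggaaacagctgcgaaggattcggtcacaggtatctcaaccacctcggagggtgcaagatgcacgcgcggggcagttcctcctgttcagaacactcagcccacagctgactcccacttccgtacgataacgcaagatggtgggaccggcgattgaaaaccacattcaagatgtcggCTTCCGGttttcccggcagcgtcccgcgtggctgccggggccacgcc
Mrpl35 (chr6:71823785-71824034, minus strand): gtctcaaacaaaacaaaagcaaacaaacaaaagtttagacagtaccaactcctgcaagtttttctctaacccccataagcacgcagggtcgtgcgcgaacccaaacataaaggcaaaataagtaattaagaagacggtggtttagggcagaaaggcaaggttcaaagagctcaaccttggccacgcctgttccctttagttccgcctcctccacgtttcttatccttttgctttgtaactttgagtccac
Mrps22 (chr9:98601680-98601929, minus strand): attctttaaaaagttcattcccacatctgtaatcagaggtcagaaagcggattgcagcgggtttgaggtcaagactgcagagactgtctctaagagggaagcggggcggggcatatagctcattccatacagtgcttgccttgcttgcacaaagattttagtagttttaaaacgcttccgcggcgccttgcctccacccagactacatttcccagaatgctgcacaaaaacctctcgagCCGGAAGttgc
Mrps18a (chr17:46110754-46111003, plus strand): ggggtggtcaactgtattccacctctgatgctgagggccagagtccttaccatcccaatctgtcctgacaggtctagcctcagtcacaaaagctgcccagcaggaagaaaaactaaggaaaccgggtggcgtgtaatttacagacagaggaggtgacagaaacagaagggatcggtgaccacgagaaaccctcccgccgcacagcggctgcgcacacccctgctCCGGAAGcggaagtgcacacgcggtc
The printed bases of Mrps22 and Mrps18a hold the ETS letters near the start, and those of Mrpl52 hold them on the other strand as CTTCCGG. Those of Mrpl35 hold none of the 3 motifs. The members' windows also often ran into a neighbour: the 250 upstream bases reached another protein-coding gene for 21 of 54 members (38.9%), against 13.1% of 17492 genes. Among members, Mrps11 (start at 78783131 on chromosome 7, plus strand) and Mrpl46 (start at 78783089, minus strand) stand head to head with 41 bases between their starts, of which 73.2% are G or C. This shared stretch is shown because both members were measured.
Mrpl46 to Mrps11 (chr7:78783090-78783130, plus strand): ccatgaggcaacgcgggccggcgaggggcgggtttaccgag

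Afp itself was measured first as a check of the labels. In embryos Afp was at −8.40 ± 0.23 (SD, n = 6), with every embryo between −8.79 and −8.11 (limma adjusted p = 1.25e-08). In adults, whose liver makes little of it, Afp was at −0.025 ± 0.19 (SD, n = 6; adjusted p = 0.944), so the adult value does not check the labels. The sources used here do not state whether adult arrays with the mutant in Cy3 were deposited as mutant over pool. They were used as deposited, and adult values that depend on it are given with these arrays turned in sign as well. The 12 hepatocyte markers measured in adults had a median of −0.45, with 11 below 0, but with the Cy3 arrays turned the median was 0.086, with 7 above 0. In embryos 8 of 11 hepatocyte markers were above 0 (median 0.22). There, 4 of 5 erythroid markers (median −0.13) and 5 of 6 cholangiocyte markers (median −0.29) were below 0, and the 6 exocrine pancreas markers had a median of −0.87 with every embryo's median below 0 (−1.21 to −0.47). Of these marker genes 2 passed the threshold in embryos, both of the exocrine pancreas and both lower. In pieces of tissue, fewer cells of a type and less RNA per cell cannot be told apart, and the part these markers play in the members' values was not tested.

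In adult livers members lay on both sides of the wild-type pool, and no member passed the test. Of the 61 members, 33 had a mean above 0 and 28 below, with a median of 0.014 beside 0.0081 over all 17039 features tested. The large subunit had 21 above and 17 below (median 0.046), the small subunit 12 above and 11 below (median 0.0005). The means of 40 members were within 0.2 of 0. At limma's adjusted p of 0.05 the count was 0 for members and 0 for all features (0% of 17039). At an unadjusted p under 0.05 there were 5 members (2 higher, 3 lower) of 61, and 7.75% of all features.

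**Figure D1:**
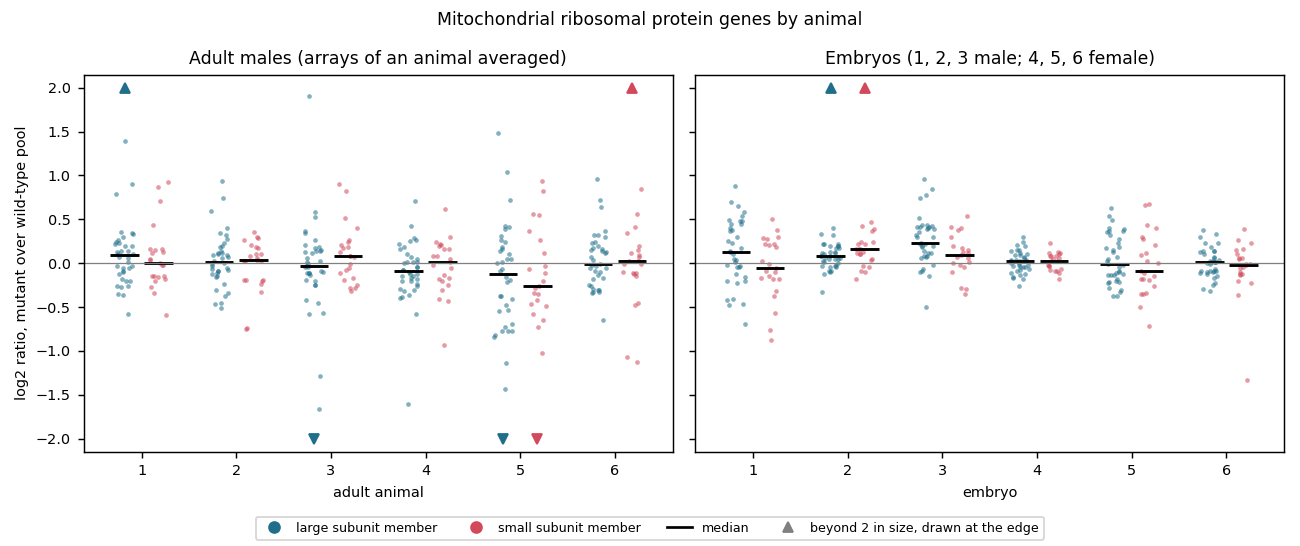
Each point is the log2 ratio (mutant over wild-type pool) of a member in an adult animal (left, arrays of an animal averaged) or an embryo (right), with large subunit members in blue, small subunit members in red and the median as a black bar; triangles stand for values beyond 2 in size. The medians lie close to 0 in every animal, with the small subunit median of adult 5 lowest at −0.27 and the large subunit median of embryo 3 highest at 0.23.

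Across the adult animals the large subunit median ran from −0.13 (animal 5) to 0.088 (animal 1), and the small subunit median from −0.27 (animal 5) to 0.083 (animal 3). Neither subunit lay on one side of 0 in all 6 animals. The cytosolic ribosome and the respiratory chain, measured on the same arrays, had lower medians as deposited. Means were below 0 for 52 of 60 cytosolic ribosomal protein genes (median −0.18) and for 57 of 73 respiratory chain genes (median −0.15). As deposited no gene of these lists passed the threshold, and the difference between the lists was not tested. With the Cy3 arrays turned this order was the opposite: the medians were −0.0022 for the cytosolic ribosome and −0.017 for the respiratory chain, against −0.11 for the members (21 above 0, 40 below) and −0.092 for all features.

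By origin, the 24 large subunit members with a bacterial counterpart had a median of 0.080 (14 above 0, 10 below), and the 11 that arose in mitochondria one of −0.047 (4 above, 7 below). In the small subunit, the 13 with a bacterial counterpart had a median of 0.014 (8 above, 5 below) and the 7 without one of −0.068 (3 above, 4 below). On turned Cy3 arrays the order of the large subunit classes was the opposite, at −0.13 with a bacterial counterpart and −0.015 without, and the small subunit classes were at −0.0056 and −0.25. Over the 6 animals, as deposited, the per-animal medians had SDs of 0.11 and 0.13 for the large and 0.094 and 0.15 for the small subunit classes. The differences between classes were not tested.

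Mrps9, the counterpart of bacterial ribosomal protein S9, ranged in the 6 adults from 0.18 over a median of 0.31 to 0.92. All 6 animals were above the pool, animals 1 and 6 the most. Its mean was 0.47 ± 0.33 (SD, n = 6; limma adjusted p = 0.639). On the other side, Mrpl51, a large subunit protein without a bacterial counterpart, ran from −1.14 over −0.37 to −0.028. Every animal was below 0, at a mean of −0.44 ± 0.41 (SD, n = 6; limma adjusted p = 0.639). Mrpl52, also specific to mitochondria, ran from −0.77 over −0.20 to −0.086, again with every animal below 0. Its mean was −0.27 ± 0.26 (SD, n = 6; limma adjusted p = 0.641). The lowest value came from animal 5, which stood apart from the other animals.

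Mrpl18, which in bacteria binds 5S ribosomal RNA, ran from −1.29 over −0.48 to 0.23, with 1 animal above 0, and had a mean of −0.51 ± 0.50 (SD, n = 6; limma adjusted p = 0.639). Mrpl21 lay between 0.089 and 0.39 around a median of 0.18, all 6 animals being above 0, with a mean of 0.20 ± 0.11 (SD, n = 6; limma adjusted p = 0.641). The small subunit members Mrps10 (mean −0.21 ± 0.22), Mrps30 (−0.21 ± 0.27) and Mrps16 (0.29 ± 0.44) each had animals on both sides of 0. Mrps30 carries a small subunit name but sits in the large subunit. As deposited, the same sign in all 6 animals was found for 4 of the 60 members measured in all animals (Mrpl21 and Mrps9 above, Mrpl51 and Mrpl52 below), and for 6.27% of all features. After turning the Cy3 arrays it was found for 12 of 60 members (7 above, 5 below), a share of 20%, and for 20% of all features, and none of those 4 was among the 12. The turned means were −0.24 for Mrps9, −0.25 for Mrpl51, −0.14 for Mrpl52, −0.26 for Mrpl18 and 0.19 for Mrpl21, each with animals on both sides of 0.

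**Figure D2:**
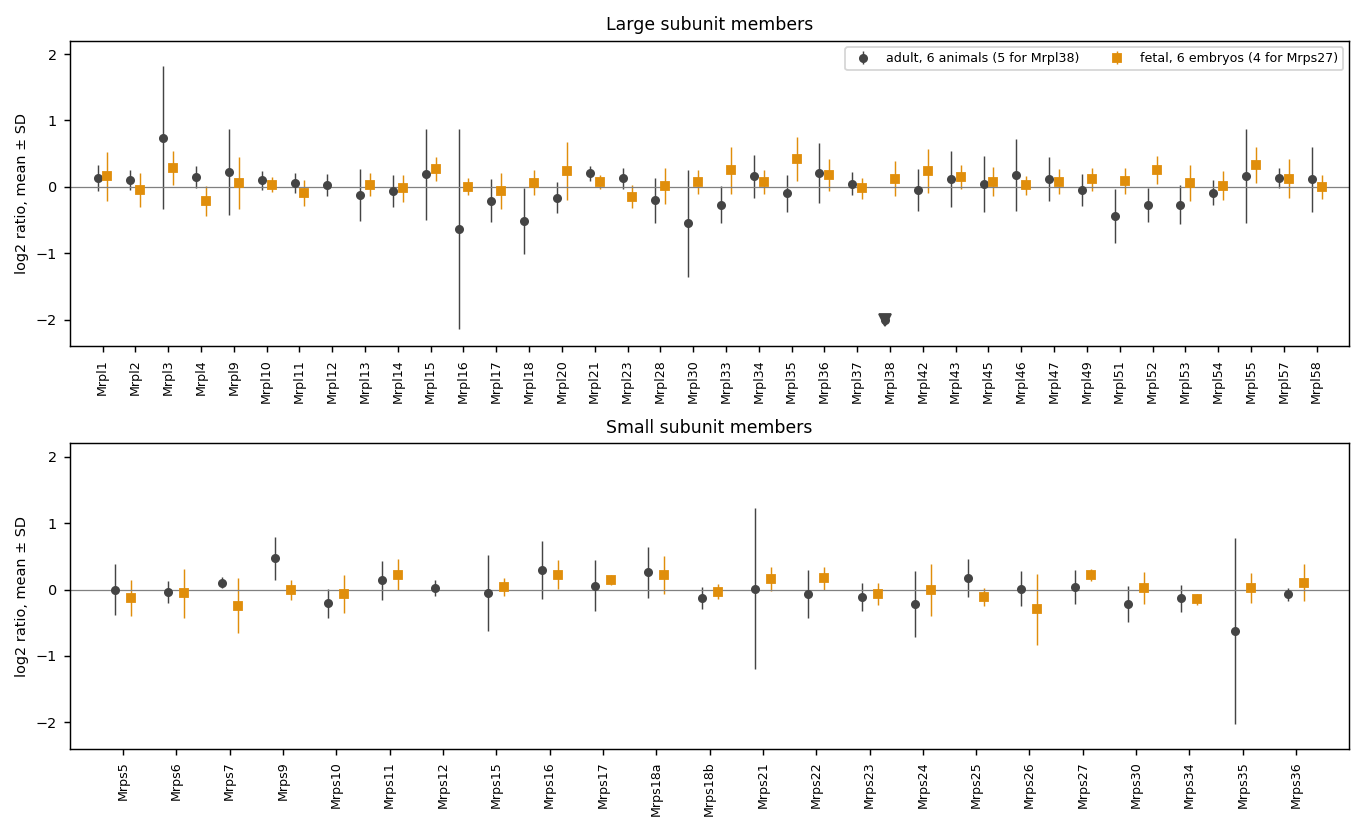
Mean log2 ratio (mutant over wild-type pool) with SD for each member, adults in grey and embryos in orange, large subunit above and small subunit below; the triangle marks Mrpl38, whose adult mean of −2.05 is drawn at the edge without its SD, and Mrpl12 and Mrps12 have no fetal point. Most means lie within 0.2 of 0 (40 of 61 in adults, 44 of 59 in embryos), and most bars cross 0.

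Some adult means rest on single arrays. Mrpl38 had a mean of −2.05 ± 3.44 (SD, n = 5) because the array of animal 3 with the mutant in Cy3 gave −17.0, the lowest value on that array. Its other arrays lay between −2.35 and 0.80, and animal 6 had no value. Mrpl3, a member whose human counterpart is a disease gene, ran from −0.40 to 2.11 (mean 0.74 ± 1.07, SD, n = 6; limma adjusted p = 0.652), with animals 1 and 3 near 2 and animals 4 and 6 below 0. Mrpl16 and Mrps35 had SDs of 1.51 and 1.40.

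In fetal livers more members lay above than below the pool, by small amounts. Means were above 0 for 41 of the 59 members tested and below for 18, with a median of 0.058 beside 0.0046 over all 17242 features. This came from the large subunit, with 30 above and 7 below (median 0.073), while the small subunit split into 11 and 11 (median 0.0094). No member passed limma's adjusted p of 0.05, against 26 of all features (0.151%). At an unadjusted p under 0.05 there were 10 members (8 higher, 2 lower) of 59, beside 20.8% of all features. The members' share is thus not above the background.

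The large subunit median was above 0 in 5 of 6 embryos and ran from −0.012 (embryo 5) to 0.23 (embryo 3). The small subunit median was above 0 in 3 of 6, from −0.091 (embryo 5) to 0.16 (embryo 2). Among large subunit proteins specific to mitochondria 10 of 11 were above 0 (median 0.093), and among those with a bacterial counterpart 17 of 23 (median 0.065). The cytosolic ribosome (47 of 60 above 0, median 0.19) and the respiratory chain (59 of 73 above 0, median 0.11) also lay above 0, and none of their genes passed the threshold. In these embryos hepatocyte markers were mostly above 0 (8 of 11), and erythroid markers were mostly below (4 of 5), with a median below 0 in every embryo (−0.34 to −0.004). Their part in the members' values was not tested.

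Mrpl35, the counterpart of bacterial L35, ran in embryos from −0.008 over 0.35 to 0.88. Embryos 1 and 3, both male, were highest, and embryo 5 was at the pool's level. The mean was 0.42 ± 0.33 (SD, n = 6; limma adjusted p = 0.129). Mrpl15 ran from 0.018 over 0.28 to 0.49 and Mrpl55, a large subunit protein, from 0.042 over 0.27 to 0.65. In both genes all 6 embryos were above 0, with means of 0.27 ± 0.18 and 0.33 ± 0.27 (SD, n = 6; limma adjusted p = 0.137 and 0.148). The fetal arrays all had the mutant in Cy5. Their values correlated at 0.38 with the adult difference between dye orientations described below. With that difference subtracted, Mrpl15 was at 0.32 and Mrpl55 at −0.65 in embryos. Mrpl52, low in the adults, ran from −0.10 over 0.28 to 0.49 in embryos, with 5 of 6 above 0 (mean 0.26 ± 0.21, SD, n = 6; limma adjusted p = 0.166).

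In the small subunit Mrps16, whose human counterpart is a disease gene, had 5 of 6 embryos above 0 (from −0.024 over 0.20 to 0.54; mean 0.23 ± 0.22, SD, n = 6; limma adjusted p = 0.220). Mrps27, an RNA-binding protein of the PPR family, had 4 fetal values, 0.28, 0.24, 0.097 and 0.26, all above 0 (limma adjusted p = 0.230). Mrps11 had a mean of 0.23 ± 0.24 (SD, n = 6; limma adjusted p = 0.236), with 1 embryo below 0. Mrps34 was the member that lay below 0 in every embryo, from −0.30 over −0.14 to −0.039 (mean −0.15 ± 0.09, SD, n = 6; limma adjusted p = 0.238). With the adult orientation difference subtracted, Mrps16 was at −0.13, Mrps27 at 0.038, Mrps11 at −0.40 and Mrps34 at 0.10. The same sign in all 6 embryos was found for 4 of 58 members (Mrpl15, Mrpl55, Mrps17 and Mrps34), a share of 6.9%, against 15.8% of all features.

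For 2 members the fetal arrays gave no usable estimate. Mrpl12, which is also known to bind the mitochondrial RNA polymerase, had values in embryos 2 and 5 only, at 16.3 and 0.023. Mrps12 had 0.22 in embryo 1, 16.3 in embryo 2 and 0.67 in embryo 5. The value of 16.3 is in both cases the highest on the array of embryo 2, and no fetal level was taken from it.

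The members were then compared between the ages, as the log2 ratio in adults minus that in embryos, on the 6 adult arrays that share the fetal dye orientation. Of 59 members 26 were higher in adults and 33 lower (median −0.031, beside −0.022 over all features), with 16 against 21 in the large subunit (median −0.10) and 10 against 12 in the small subunit (median −0.016). No member passed limma's adjusted p of 0.05, against 23 of 16314 features (0.141%). At an unadjusted p under 0.05, 19 members did (7 higher, 12 lower), and 20.2% of all features. For the cytosolic ribosome 52 of 60 genes were lower in adults (median −0.30) and for the respiratory chain 55 of 73 (median −0.25). No member had all its adult values on one side of all its fetal values. How often this occurs among all features was not counted, so the absence cannot be set against a background.

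Mrpl36, a large subunit protein with a bacterial counterpart, lay in adults between 0.14 and 1.04 (median 0.86) and in embryos between −0.11 and 0.54 (median 0.19). The adults were higher except animal 1, which overlapped with the embryos, and the difference was 0.58 (limma adjusted p = 0.103). Mrpl55 lay between 0.28 and 1.49 (median 1.03) in adults and between 0.042 and 0.65 in embryos, with animal 1 again within the fetal range. The difference was 0.65 (limma adjusted p = 0.119). Mrps18a, named as a small subunit protein but located in the large subunit, gave 0.13 to 1.07 (median 0.87) against −0.087 to 0.67 (median 0.20), a difference of 0.52 (limma adjusted p = 0.152). Mrpl34 (difference 0.41, limma adjusted p = 0.122) and Mrps17 (0.36, limma adjusted p = 0.186) went the same way with overlapping ranges.

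The opposite difference was seen for Mrps22, a mitochondria-specific protein of the small subunit whose human counterpart is a disease gene. Its adult values ran from −0.99 over −0.42 to 0.18 and its fetal values from −0.089 over 0.19 to 0.38. Only adult animal 1 reached above 0, and the groups overlapped; the difference was −0.61 (limma adjusted p = 0.105). Mrpl52 ran from −0.77 over −0.24 to 0.18 in these adult arrays, and the difference from embryos was −0.55 (limma adjusted p = 0.126). Mrps30 differed by −0.35 (limma adjusted p = 0.210), with adults from −0.55 to −0.056 and embryos from −0.26 to 0.38.

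Animal 1 mattered for this comparison. Without it 8 members passed limma's adjusted p of 0.05, as did 7.59% of all features: Mrpl36 (0.71), Mrpl55 (0.79), Mrps11 (0.59) and Mrps18a (0.65) were higher in adults, and Mrpl18 (−0.91), Mrpl51 (−0.76), Mrpl52 (−0.64) and Mrps22 (−0.74) lower. With fetal rows named as deposited, without the shift of 11 rows, 2 members passed (Mrpl55 at 0.75 and Mrps18a at 0.74), and 9.38% of all features.

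**Figure D3:**
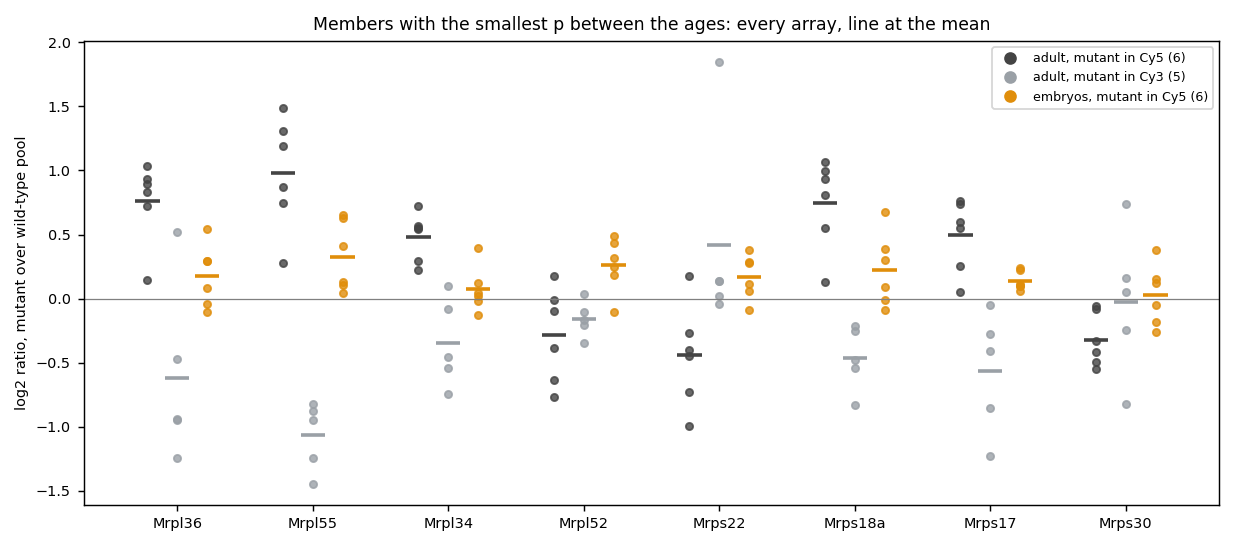
Log2 ratio (mutant over wild-type pool) on every array for the 4 large and 4 small subunit members with the smallest p between the ages, with a line at the mean: adult arrays in black (mutant in Cy5) or grey (mutant in Cy3), and embryos in orange. For Mrpl36, Mrpl55, Mrpl34, Mrps18a and Mrps17 the black mean lies highest, with some black points within the fetal range, and the grey mean lies below 0, whereas for Mrpl52 both adult means lie below the fetal one.

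The plot of single arrays by age shows that the adult value of many members depended on which dye the mutant carried. With the Cy3 arrays as deposited, Mrpl36, Mrpl55, Mrpl34, Mrps18a and Mrps17 had means of −0.62, −1.07, −0.34, −0.46 and −0.56 on these arrays, against 0.76, 0.98, 0.48, 0.75 and 0.49 with the mutant in Cy5. On that reading the direction of their adult ratio differed between the orientations. Mrpl51, Mrpl52 and Mrpl18 were below 0 on average in both orientations (−0.50 and −0.23, −0.29 and −0.16, −0.65 and −0.31 for Cy5 and Cy3). Mrps9 and Mrpl3 were above 0 on average in both (0.18 and 0.86, 1.04 and 0.73). For Mrpl3 each mean rests on 4 animals, and only 2 animals had both. Of its 4 values, 3 were above 0 with the mutant in Cy5 and 2 with it in Cy3. Opposite signs between the orientations were found for 39 of 61 members (63.9%; 22 of 38 large, 17 of 23 small), beside 69% of all features. Turning the Cy3 arrays gave 36.1% of members and 31% of all features.

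**Figure D4:**
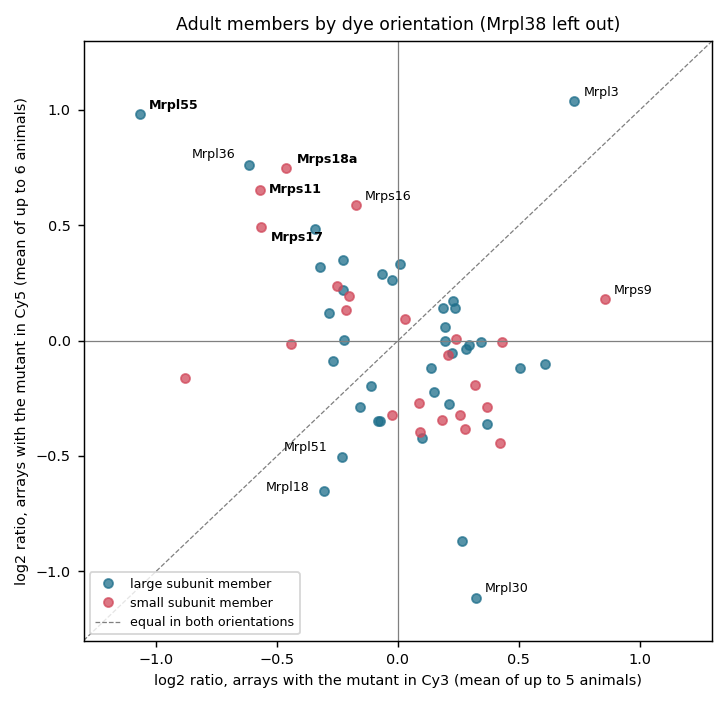
Mean adult log2 ratio (mutant over wild-type pool) of each member on arrays with the mutant in Cy3 (horizontal) and in Cy5 (vertical), large subunit blue and small subunit red, with the dashed line at equality, names in bold for the 4 members past the threshold, and Mrpl38 left out. Mrpl55, Mrps11, Mrps18a and Mrps17 lie at the upper left, with opposite signs in the 2 orientations, while Mrpl51 and Mrpl18 lie at the lower left and Mrps9 and Mrpl3 at the upper right.

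The difference between an animal's Cy5 and Cy3 arrays, divided by 2, was tested over the 5 animals with both. This comparison was added after the values had been seen. Of 59 members 4 passed limma's adjusted p of 0.05, all higher with the mutant in Cy5, against 1491 of 16396 features (9.09%; 8.51% higher and 0.579% lower). The members' share is near the background. At an unadjusted p under 0.05 there were 14 members (8 higher, 6 lower), and 27.3% of all features. The same sign in all 5 animals was found for 12 of 55 members (21.8%), and 25.5% of all features.

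Mrpl55 gave 0.86, 0.85, 1.13, 1.03 and 0.99 in animals 1, 2, 3, 4 and 6, a mean of 0.97 (limma adjusted p = 0.00732). All its arrays with the mutant in Cy5 were above 0 and all those with the mutant in Cy3 below. Mrps11, whose start faces that of Mrpl46, gave 0.19, 0.71, 0.93, 0.66 and 0.62 (mean 0.62, limma adjusted p = 0.0222), lowest in animal 1. Mrpl46, across the shared 41 bases, had a mean of 0.17 on Cy5 arrays and of 0.23 on Cy3 arrays (limma adjusted p = 0.991). Mrps18a gave 0.33, 0.51, 0.91, 0.77 and 0.40 (mean 0.59, limma adjusted p = 0.0246), and Mrps17 gave 0.64, 0.15, 0.52, 0.58 and 0.73 (mean 0.52, limma adjusted p = 0.0333). All 5 animals were above 0 in these genes. Mrpl36 (mean 0.66, limma adjusted p = 0.0638) was at −0.19 in animal 1 and between 0.70 and 1.07 in the other animals. Mrps23, a mitochondria-specific small subunit protein, lay below 0 in all 5 animals (limma adjusted p = 0.110).

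The number of members called depended on the animals: without animal 1 there were 8 (15.3% of all features), without animal 2 there were 2 (5.4%), and without animal 3 or 4 only Mrpl55 (4.97% and 4.05%). Mrpl55 passed in each of these. The mitochondria-specific small subunit list had a median below 0 in 6 of 6 animals with the mutant in Cy5 (−0.39 to −0.047) and above 0 in 5 of 5 with it in Cy3 (0.068 to 0.49).

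The adult calls changed with the way the orientations were combined. With the mutant in Cy5 alone, 3 members passed limma's adjusted p of 0.05 (Mrpl36 at 0.76, Mrpl55 at 0.98 and Mrps18a at 0.75), and 6.55% of all features. With the mutant in Cy3 alone, Mrpl55 passed at −1.07, and 4.19% of all features. With the Cy3 arrays turned in sign, 6 members passed, all higher (Mrpl34, Mrpl36, Mrpl55, Mrps11, Mrps17 and Mrps18a), as did 10.4% of all features. Where an animal had both arrays, this turned average is the same quantity as the orientation difference. These calls are therefore not separate from those of the orientation difference. The large and small subunit medians with the Cy3 arrays turned were −0.11 and −0.17. When the adult profile of orientation differences was subtracted from the fetal values, 23 members passed (13 higher, 10 lower), and 30.3% of all features. The same mean profile was subtracted from every embryo. These tests therefore hold only the spread between embryos and leave out the spread of the profile between adult animals. Mrps22 (0.62) and Mrpl35 (0.58) were then among the higher, and Mrpl38 (−2.08), Mrps35 (−0.88) and Mrpl55 (−0.65) among the lower. Were the Cy3 arrays not yet turned, that profile would be the adult ratio of mutant to pool. The single arrays of Mrpl38 enter its value. For Mrpl30 (0.81) and Mrpl3 (−0.43), also among the 23, the profile rests on 2 animals, which for Mrpl30 lie at −2.59 and 1.11.

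Where a gene had several probes, the probes differed in this respect. Of the 13 such members, 6 had probes with orientation differences of both signs (Mrpl4, Mrpl10, Mrpl17, Mrpl21, Mrpl49 and Mrps6). The probes of Mrpl21 gave 0.54 ± 0.23 (Cy5, SD, n = 6) and −0.49 ± 0.39 (Cy3, SD, n = 5) for the first, and 0.12 ± 0.09 and 0.51 ± 0.13 for the second. The adult mean of Mrpl21, above 0 in every animal, is thus the average of unlike probes. The orientation difference of Mrps17 came mainly from the second of its probes (0.73 in Cy5, −1.16 in Cy3), the first being at 0.26 and 0.03. Mrpl34 was alike, with 0.83 and −0.81 for one probe and 0.14 and 0.12 for the other. Mrpl55, Mrps11 and Mrps18a had a single probe each, so no other probe bears on them.

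**Figure D5:**
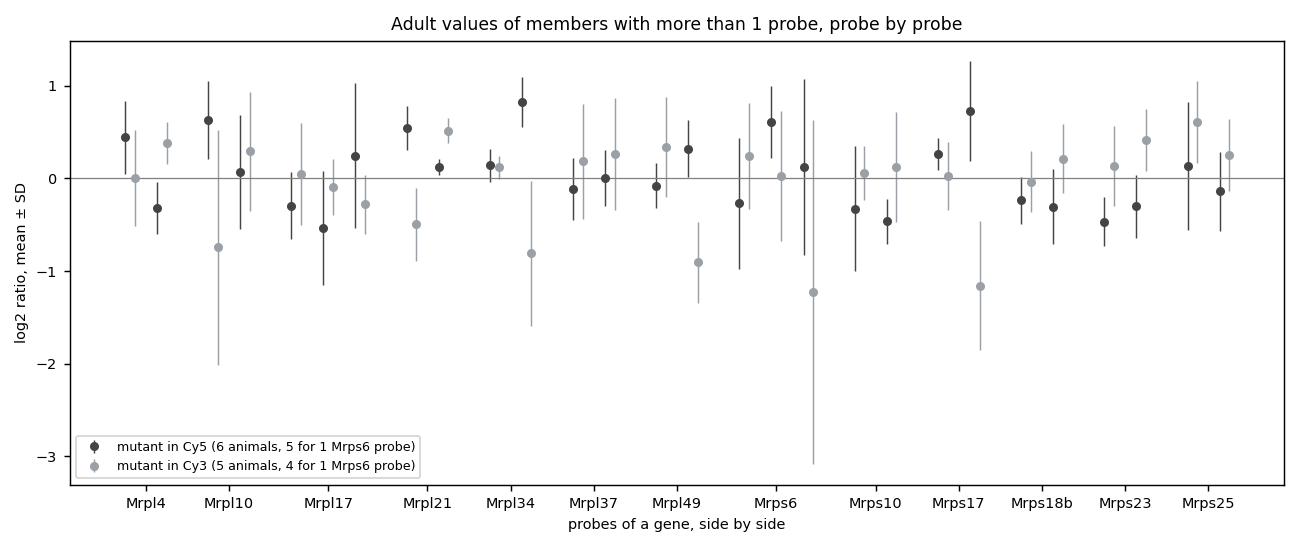
Adult mean log2 ratio (mutant over wild-type pool) with SD for every probe of the 13 members with more than 1 probe, mutant in Cy5 black and mutant in Cy3 grey. In Mrpl21, Mrpl34 and Mrps17 black and grey lie far apart for one probe of the gene and much closer for the other, or in the opposite order.

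Between the sexes, 42 of 59 members had a lower log2 ratio in female than in male embryos and 17 a higher one (median −0.092, beside −0.0003 over all features), with 28 against 9 in the large subunit (median −0.11) and 14 against 8 in the small (median −0.081). The cytosolic ribosome (44 of 60 lower, median −0.16) and the respiratory chain (53 of 73 lower, median −0.12) leaned the same way. No member passed limma's adjusted p of 0.05, against 2 of 17212 features (0.0116%). At an unadjusted p under 0.05, 3 members did, all lower in females, and 3.18% of all features.

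Mrpl35 was at 0.40, 0.75 and 0.88 in male and at −0.008, 0.23 and 0.30 in female embryos. Every male was above every female, and the difference was −0.51 (limma adjusted p = 0.998). Mrpl33 was at 0.17, 0.49 and 0.85 in males and at −0.11, 0.039 and 0.049 in females, without overlap (difference −0.51, limma adjusted p = 0.998). Mrpl1, which in bacteria forms the L1 stalk, was at 0.10, 0.38 and 0.78 against −0.28, −0.039 and 0.01 (difference −0.52, limma adjusted p = 0.998). In all, 7 of the 58 members with a value in every embryo had each male above each female (Mrpl1, Mrpl33, Mrpl35, Mrpl42, Mrpl52, Mrpl58 and Mrps15), beside 4.8% of all features, and none had each male below each female, beside 4.58%. In the small subunit Mrps26 differed by −0.57, with embryos of both sexes overlapping, and Mrps24 by −0.46. The labels call the pool male for embryos 1 and 2 only, so the pool's label and sex cannot be told apart in those embryos.

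The 8 members whose human counterparts are genes of inherited mitochondrial disease (Mrpl3, Mrpl12, Mrps7, Mrps16, Mrps22, Mrps23, Mrps25 and Mrps34) showed no common direction. In adults 5 were above 0 and 3 below (median 0.065; 2 above and 6 below with the Cy3 arrays turned, median −0.14), and in embryos 3 of the 7 tested were above and 4 below (median −0.068). Mrps7 was at 0.10 ± 0.08 in adults and −0.24 ± 0.41 in embryos (SD, n = 6 each), where embryo 1 at −0.87 was lowest. Among members whose place differs from their name, Mrps18a was at 0.26 ± 0.38 in adults and 0.23 ± 0.28 in embryos, and Mrps36, now known as a part of the oxoglutarate dehydrogenase complex, at −0.07 ± 0.10 and 0.11 ± 0.28. Mrps18b, which does sit in the small subunit, was at −0.13 ± 0.17 and −0.03 ± 0.11.

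Genes that act with the mitochondrial ribosome were read from lists for the same comparisons, with adult values as deposited, and none of them passed the threshold in adults, in embryos or between the ages. Among subunits without an Mrpl or Mrps name, Gadd45gip1 was at −0.65 ± 0.46 in adults (SD, n = 6; limma adjusted p = 0.639), alike in both orientations (−0.69 and −0.61), and at −0.05 in embryos. Chchd1 was at 0.55 ± 0.50 in embryos (SD, n = 6; limma adjusted p = 0.144) and differed by orientation in adults (0.74 and −0.87, limma adjusted p = 0.0266). Translation factors split into 3 above and 5 below 0 in adults and 4 and 4 in embryos; Mtrf1l, a release factor, and Tufm, the elongation factor Tu, differed by orientation (0.69 and 0.54, limma adjusted p = 0.0100 and 0.0313). The aminoacyl-tRNA synthetases and amidotransferase subunits split into 4 and 3 in adults and 5 and 3 in embryos, and the assembly factors into 6 and 6 and into 5 and 7. For replication, transcription and RNA maturation of mitochondrial DNA, 6 genes were above and 7 below 0 in adults and 7 above and 6 below in embryos, with Mterf1a, a transcription termination factor, at 0.47 in embryos (limma adjusted p = 0.0836). Of the nuclear regulators, 4 were above and 7 below 0 in adults and 3 above and 4 below in embryos; Gabpa, the DNA-binding part of the GA-binding protein, was at −0.05 in adults and −0.10 in embryos, and Nrf1 at 0.14 and −0.010. Esrra and Yy1, both regulators of mitochondrial genes, differed by orientation in adults (0.66 and 0.42, limma adjusted p = 0.0122 and 0.0386). The import machinery had 15 of 20 genes below 0 in adults (median −0.11) and 10 above and 9 below in embryos (median 0.012).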

How the data were processed

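The values were log2 ratios of the 2 channels, as deposited by the authors in a table of 20794 rows and 17 columns. For image analysis, background correction and normalization, tools were not given in the sources used here; that the logarithm has base 2 is inferred from the range of the values. The members and gene lists were chosen with earlier results of these data known. Probes were named through the platform's annotation (12771 probes with 1 gene symbol, 8023 without). Probes of a gene were averaged. The named members were those past the threshold, those with the smallest p per subunit and comparison, members with several probes, disease genes and members whose place differs from their name. Fetal rows were moved by 11 for probes up to 20000. This was checked on 5035 pairs of probes of the same gene outside the members, at 121 offsets. The Spearman correlation of fetal values was 0.0858 with the shift, 0.0679 at the next best offset and 0.0059 as deposited. Adults were best at an offset of 0 (0.0629), with 0.0412 at the next best. Fetal values correlated with the adult orientation difference at 0.38 with the shift and at 0.018 as deposited. Values above 10 in size were all positive on arrays with the mutant in Cy5 and all negative with it in Cy3, and the latter were used as already turned to mutant over pool. An animal's arrays were averaged first. Features with a value in 4 of 6 animals (2 embryos of each sex for the sexes) were tested with limma 3.58.1 in R 4.3.3, with Benjamini-Hochberg adjustment over all features and a threshold of 0.05. The fits were tested on simulated data. The number of arrays limits the precision.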

Additional observations from a re-analysis of the deposited data

Results flagged for a closer look

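Of 28 groups of 4 to 6 values examined, 2 held a value far from the others, where chance gives about 1 in 20. Mrpl52 in adults was at −0.768 in animal 5, while the other animals lay between −0.299 and −0.086. The small subunit median in adults was at −0.266 in animal 5, while the other animals lay between −0.003 and 0.083. Animal 5 was hybridised in 1 dye orientation only, and the part this plays was not tested.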

How the results depend on the processing

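Of the medians and counts of members, 164 kept their direction and side of the threshold under the alternatives, 7 gained, 3 lost and 4 medians moved by more than the spread. With the Cy3 arrays turned in sign the adult medians were −0.106 (large) and −0.173 (small). Without one sample each, the small subunit median between the ages ran from −0.0996 to 0.121. With row names as deposited the small subunit median between the sexes was 0.072. The members called in adults were 1 (Cy3 arrays only), 6 (Cy3 turned) and 3 (Cy5 only). In embryos 23 were called with the adult orientation difference subtracted. Between the ages 2 were called with row names as deposited and 0 to 8 without 1 sample each. For the orientation difference the range was 1 to 8. With the title number as a replicate block 0 members were called between the ages, and the medians were −0.053 (large) and 0.0086 (small); the numbers do not mark shared animals. Of the named members 363 values held, 13 gained, 9 lost and 14 reversed. With row names as deposited Mrpl15 (−0.11), Mrpl52 (−0.26) and Mrps27 (−0.067) reversed in embryos, and Mrpl35 (0.13) and Mrps24 (0.44) between the sexes. Under that naming a fetal value comes from a row 11 away from the one used here. These reversals therefore compare different rows and do not bear on the spread of the member itself. With the adult orientation difference subtracted Mrpl55 (−0.65), Mrps11 (−0.40), Mrps16 (−0.13) and Mrps34 (0.10) reversed in embryos. With both orientations Mrpl55 (−0.16) and Mrps17 (−0.080) reversed between the ages. In adults Mrps10 (0.090) and Mrps16 (−0.17) reversed with Cy3 arrays only, and Mrps9 (−0.24) with Cy3 turned. The cause was not tested.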
